A study of Mus musculus with 12 samples.

Results

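The genes described here are 8 transcription factor genes of 2 families: Myc, Mycn and Mycl1, their obligate partner Max, and the nuclear factor I genes Nfia, Nfib, Nfic and Nfix. They were taken by gene symbol and are 8 of the 23284 genes counted; all 8 passed the filter on low counts, as did 14989 genes in all. Expression was measured by sequencing mRNA of 12 primary thyroid carcinomas of neuroendocrine type, which arose in engineered mice. Of these, 7 carried the genotype label Rb1/Trp53 and 5 the label Rb1/Trp53/Crebbp. Both groups thus share the tumour suppressor genes Rb1 and Trp53 in their genotype, and the groups differ by Crebbp, which encodes a histone acetyltransferase. The series was made to find genes that Crebbp regulates in these tumours. The sources used here do not give the alleles, the driver of any Cre recombinase, the age and sex of the mice, or whether each tumour came from its own mouse, so the p-values cover only the spread among the 12 tumours.

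Myc proteins bind DNA as dimers with MAX at E-boxes and raise the transcription of genes for ribosome synthesis, metabolism and cell division, while MXD proteins compete with them for MAX. The 3 Myc genes encode related proteins, and MYC, MYCN and MYCL are each known as oncogenes of neuroendocrine cancers. Nuclear factor I (NFI) proteins bind a palindrome with the core TTGGC as dimers and act in the differentiation of glia, lung and other tissues; Nfib is known as a gene that promotes the spread of small cell lung cancer.

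Counts in genes ranged from 9.11 M to 57.3 M per tumour in the Rb1/Trp53 group and from 9.14 M to 20.5 M in the Rb1/Trp53/Crebbp group, so that 1 count stood for 0.0167 to 0.104 CPM (counts per 1 M). Levels below are CPM after scaling by trimmed mean of M values (TMM). Crebbp itself stood at 54.6 ± 20.04 CPM (SD, n = 7) in Rb1/Trp53 tumours and 53.9 ± 4.19 CPM (SD, n = 5) in Rb1/Trp53/Crebbp tumours. A count over the whole gene cannot reveal a deleted exon, so this level is no check of the labels. The C cell and neuroendocrine marker list (Calca, Chga, Syp and others) was detected in both groups, with summed levels of 96063 to 234090 CPM and 25680 to 138673 CPM, and 9 of its 11 genes had a log2 fold change below 0 (median -0.30). Of the 11, 1 was called, Ncam1, as higher (9.09%, where 18.3% of all tested genes were called). At an unadjusted p under 0.05, 3 were lower.

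The promoters of Mycn, Mycl1 and Max are shown because Mycn and Mycl1 were called as higher in Rb1/Trp53/Crebbp tumours and Max holds an E-box, the motif to which MYC and MAX dimers bind. All 3 come from the RefSeq table of GRCm38.p6, a later build than the mm9 used for the counts, and that table held windows for 6 of the 8 genes. Capitals mark TTGGC, the core of the NFI palindrome, and the E2F site TTTCGCGC (read on the other strand) in Mycn, and the E-box CACGTG in Max. The Mycn sequence runs over the 250 bases before the start, chr12:12941837-12942086 on the minus strand, the Mycl1 sequence (listed there as Mycl) over the 250 bases before its start, chr4:122995681-122995930 on the plus strand, and the Max sequence over 100 bases that end 20 bases after the start, chr12:76962229-76962328 on the minus strand.
Mycn: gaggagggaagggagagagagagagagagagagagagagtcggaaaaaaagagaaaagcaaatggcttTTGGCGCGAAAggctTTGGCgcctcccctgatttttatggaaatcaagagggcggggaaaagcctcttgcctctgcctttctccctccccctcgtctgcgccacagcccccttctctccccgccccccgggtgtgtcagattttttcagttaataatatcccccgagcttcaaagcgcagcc
Mycl1: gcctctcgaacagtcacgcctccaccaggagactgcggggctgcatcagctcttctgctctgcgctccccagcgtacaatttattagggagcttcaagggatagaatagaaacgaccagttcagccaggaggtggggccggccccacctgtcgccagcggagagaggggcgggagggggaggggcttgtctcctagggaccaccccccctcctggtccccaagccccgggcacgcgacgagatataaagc
Max: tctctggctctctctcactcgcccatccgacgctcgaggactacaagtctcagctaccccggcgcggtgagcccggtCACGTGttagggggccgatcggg

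Both strands of each window, 250 bases before to 50 bases after the start, were searched for 6 motifs. In Mycn the E2F site began 179 bases before the start and overlapped a TTGGC that began 182 bases before it, and another TTGGC began 167 bases before it. Of 32851 promoter windows of the same length, 0.323% held the E2F site and 46.7% held TTGGC. In Max the E-box began 3 bases before the start, where 7.15% of all windows held an E-box, and 1 TTGGC lay farther upstream. Mycl1, Nfia and Nfic held none of the 6 motifs within these windows, and 3 of the 4 windows of Nfix held TTGGC. None of the members' windows held the cAMP response element TGACGTCA or its core TGACG, found in 1.79% and 20.8% of windows, or the full NFI palindrome with its spacer, found in 0.0365%. A match describes letters and was not tested as a binding site.

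Of the 8 genes, Mycl1, Mycn and Nfib were higher in Rb1/Trp53/Crebbp tumours, by 2.88-fold, 2.05-fold and 2.0-fold, and none was called as lower (edgeR quasi-likelihood test, Benjamini-Hochberg adjusted p under 0.05 over all tested genes). At an unadjusted p under 0.05 1 gene, Max, was lower, DESeq2 called none as lower, and limma voom called Max and Nfia, in a fit that called 42.4% of all genes. The 3 genes called by edgeR are 37.5% of the 8, where 18.3% of all tested genes were called, 9.64% as higher and 8.61% as lower. The median log2 fold change of the 8 was 0.52, against -0.02 for all tested genes. The 8 genes were chosen with earlier results of these data known, so this share and median are descriptions. Nfib was the 1 gene of the 8 for which the groups did not overlap; 6.26% of tested genes had groups apart in either direction, 3.62% with Rb1/Trp53/Crebbp above and 2.64% with it below. The plot of levels by tumour shows that the 3 higher genes differ in how the rise is spread over tumours. Nfib was high in all 5 Rb1/Trp53/Crebbp tumours, Mycl1 mainly in tumours 2 and 3, and Mycn mainly in tumour 5.

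**Figure D1:**
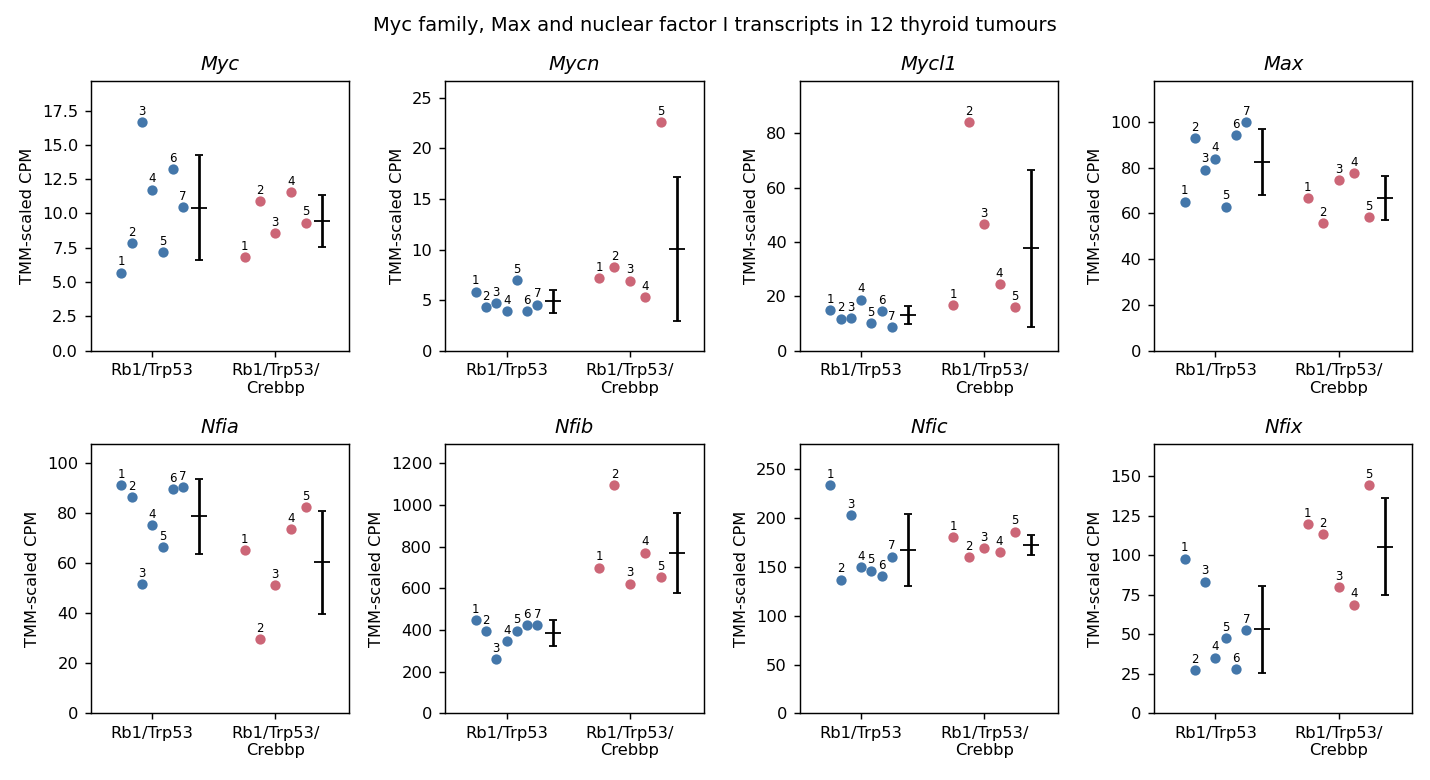
TMM-scaled CPM (linear axis from 0) of each of the 8 genes in 7 Rb1/Trp53 tumours (blue) and 5 Rb1/Trp53/Crebbp tumours (red); points are tumours with their number, and the bar gives the mean and SD. Nfib levels of 623 to 1097 CPM lie above all Rb1/Trp53 tumours, Mycl1 reaches 84.0 CPM in tumour 2 and Mycn 22.6 CPM in tumour 5.

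The lowest, median and highest levels of Nfib in Rb1/Trp53 tumours were 261, 397 and 448 CPM. In Rb1/Trp53/Crebbp tumours 1 to 5 it stood at 700, 1097, 623, 772 and 655 CPM. Every Rb1/Trp53/Crebbp tumour was therefore above every Rb1/Trp53 tumour, with tumour 2 the highest and the Rb1/Trp53 tumour 3 the lowest of the 12. Its log2 fold change was 0.997 ± 0.167 (SE; 95% interval 0.64 to 1.36; edgeR adjusted p = 0.00467), the 149th smallest p among all genes. Nfib was called in each of the 12 fits that left out 1 tumour, with log2 fold changes of 0.82 (without Rb1/Trp53/Crebbp tumour 2) to 1.07. Leaving out Rb1/Trp53/Crebbp tumours 2 and 5 together, chosen after the data were seen, gave 0.85 (edgeR adjusted p = 0.0330).

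Nfia and Nfic were not called, and Nfix missed the threshold narrowly. Nfix levels were 27.1, 47.4 and 97.9 CPM (lowest, median and highest) in Rb1/Trp53 tumours. Nfix stood at 120, 114, 80.1, 68.8 and 144 CPM in Rb1/Trp53/Crebbp tumours 1 to 5. The groups overlapped because Rb1/Trp53 tumours 1 and 3, at 97.9 and 83.4 CPM, stood above Rb1/Trp53/Crebbp tumours 3 and 4, while the other Rb1/Trp53 tumours stood below all 5. The log2 fold change of Nfix was 0.99 ± 0.33 (SE; 95% interval 0.28 to 1.70; edgeR adjusted p = 0.0520). Nfix was called in 3 of the 12 fits that left out 1 tumour, and over those 12 its log2 fold change lay between 0.84 (without Rb1/Trp53/Crebbp tumour 5; edgeR adjusted p = 0.122) and 1.21. Without Rb1/Trp53 tumour 1 it was 1.21 (edgeR adjusted p = 0.0187), without Rb1/Trp53 tumour 3 it was 1.13 (edgeR adjusted p = 0.0289) and without Rb1/Trp53/Crebbp tumour 4 it was 1.11 (edgeR adjusted p = 0.0388). Nfix overlaps Lyl1, a gene of blood cell development, in the annotation used, and whether counting used the strand is not stated in the sources; Lyl1 itself was not called (log2 fold change -1.17 ± 0.44 SE; edgeR adjusted p = 0.0797).

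Nfia, which acts in the formation of glia, ranged from 51.6 to 91.2 CPM in Rb1/Trp53 tumours (median 86.2). In Rb1/Trp53/Crebbp tumours 1 to 5 it stood at 65.0, 29.6, 51.1, 73.4 and 82.3 CPM, so that tumours 2 and 3 lay below all Rb1/Trp53 tumours and the rest among them. The log2 fold change of Nfia was -0.38 ± 0.22 (SE; 95% interval -0.87 to 0.10; edgeR adjusted p = 0.235). Nfia overlaps the long noncoding gene E130114P18Rik, from which its reads may not be told apart. Nfic, known for its part in tooth root formation, ranged from 137 to 234 CPM in Rb1/Trp53 tumours (median 150) and was between 160 and 186 CPM in the Rb1/Trp53/Crebbp tumours. All 5 Rb1/Trp53/Crebbp tumours lay inside the Rb1/Trp53 range of Nfic, but most Rb1/Trp53 tumours lay outside theirs. Rb1/Trp53 tumours 1 and 3, at 234 and 203 CPM, were the highest of the 12. Rb1/Trp53 tumours 2, 4, 5 and 6, at 137, 150, 146 and 140 CPM, were below all Rb1/Trp53/Crebbp tumours. The log2 fold change of Nfic was 0.04 ± 0.14 (SE; 95% interval -0.26 to 0.34; edgeR adjusted p = 0.847), an interval that leaves out a change of the size seen in Nfib.

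Mycl1, whose protein is the Myc family member best known from small cell lung cancer, ranged from 8.81 to 18.8 CPM in Rb1/Trp53 tumours (median 12.1). It stood in Rb1/Trp53/Crebbp tumours 1 to 5 at 16.6, 84.0, 46.5, 24.6 and 16.1 CPM. Tumours 2, 3 and 4 were above every Rb1/Trp53 tumour, and tumours 1 and 5 lay within the Rb1/Trp53 range. Mycl1 had a difference in log2 of 1.53 ± 0.38 (SE; 95% interval 0.71 to 2.34; edgeR adjusted p = 0.0201). Without Rb1/Trp53/Crebbp tumour 2, which held 917 counts of the gene, it was 0.98 (edgeR adjusted p = 0.0613); Mycl1 was called without any other single tumour. The SD of its log2 level was 1.02 among Rb1/Trp53/Crebbp tumours and 0.37 among Rb1/Trp53 tumours.

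Mycn, which encodes the Myc protein of early neural development, had the lowest mean level of the 8 genes over all 12 tumours (7.04 CPM). In Rb1/Trp53/Crebbp tumours alone its mean of 10.1 CPM was above that of Myc (9.44 CPM). Its levels were 3.90, 4.56 and 6.95 CPM (lowest, median and highest) in Rb1/Trp53 tumours and 7.19, 8.25, 6.93, 5.33 and 22.6 CPM in Rb1/Trp53/Crebbp tumours 1 to 5. Rb1/Trp53/Crebbp tumours 1, 2 and 5 stood above all Rb1/Trp53 tumours, tumour 3 lay just within their range, and tumour 5 held 312 counts of Mycn, 4.17-fold the median of the other 11 tumours. For Mycn the log2 fold change was 1.04 ± 0.33 (SE; 95% interval 0.32 to 1.75; edgeR adjusted p = 0.0455). Without Rb1/Trp53/Crebbp tumour 5 it was 0.49 (edgeR adjusted p = 0.136). Mycn was called in 3 of the 12 fits that left out 1 tumour, those without Rb1/Trp53 tumours 1 or 5 or Rb1/Trp53/Crebbp tumour 4.

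Myc and Max were not called. Myc ranged from 5.69 to 16.7 CPM in Rb1/Trp53 tumours (median 10.5) and stood at 6.81, 10.9, 8.59, 11.5 and 9.34 CPM in Rb1/Trp53/Crebbp tumours 1 to 5, all of them inside the Rb1/Trp53 range. The log2 fold change of Myc was -0.14 ± 0.26 (SE; 95% interval -0.69 to 0.41; edgeR adjusted p = 0.725), and it was 0.01 without Rb1/Trp53 tumour 3. Max ranged from 63.0 to 99.8 CPM in Rb1/Trp53 tumours (median 84.0) and stood at 66.7, 55.8, 74.4, 77.6 and 58.5 CPM in Rb1/Trp53/Crebbp tumours, of which tumours 2 and 5 were below every Rb1/Trp53 tumour. Its log2 fold change was -0.31 ± 0.14 (SE; 95% interval -0.61 to -0.01; edgeR adjusted p = 0.126).

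**Figure D2:**
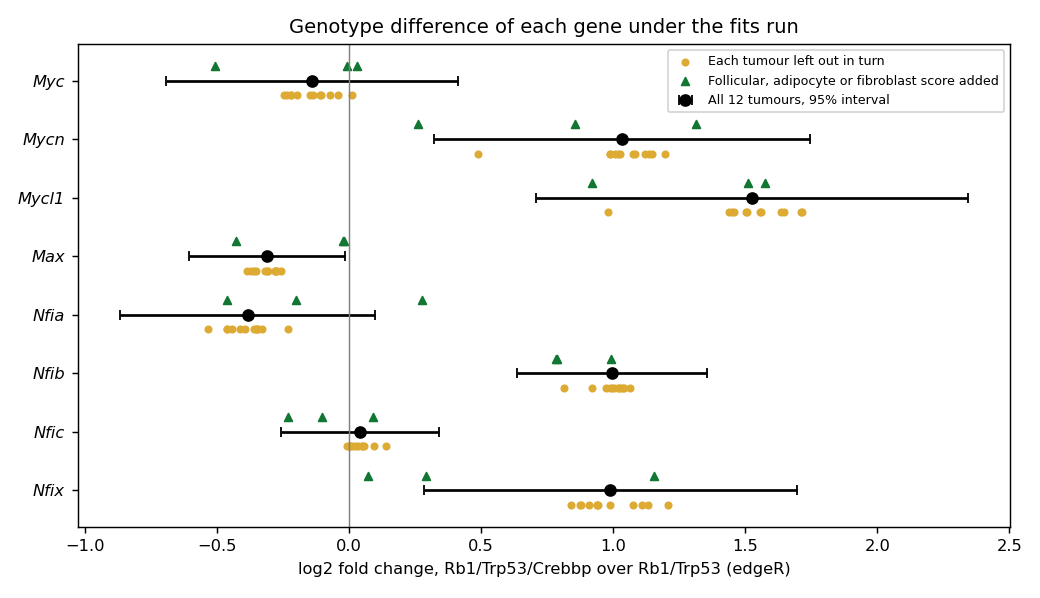
log2 fold change of each gene, Rb1/Trp53/Crebbp over Rb1/Trp53, with its 95% interval over all 12 tumours (black), with each tumour left out in turn (orange) and with a follicular, adipocyte or fibroblast marker score added to the fit (green). Nfib stays between 0.78 and 1.07 in all of these, while Mycn drops to 0.49 without 1 tumour and Nfix to 0.07 with the follicular score.

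Levels can be compared between genes per kilobase of exon, taken here over all exons of a gene in the GENCODE M21 annotation. In Rb1/Trp53 tumours the order of median CPM per kilobase was Nfib (43.0), Max (42.9), Nfic (22.6), Nfia (9.04), Nfix (6.98), Myc (4.27), Mycl1 (3.30) and Mycn (1.63). Every neighbouring pair in that order overlapped except Nfic and Nfia. In Rb1/Trp53/Crebbp tumours the order was Nfib (75.8), Max (34.1), Nfic (25.5), Nfix (16.7), Nfia (6.83), Mycl1 (6.73), Myc (3.82) and Mycn (2.56). There Nfib, Max, Nfic and Nfix were each apart from the next, and from Nfia to Mycn neighbours overlapped. With the longest transcript as the length, Nfia and Mycl1 changed places in the Rb1/Trp53/Crebbp group and no other place changed in either group.

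Within the Myc family the make-up of the transcript pool differed from tumour to tumour. The sum of Myc, Mycn and Mycl1 was 7.99 to 11.8 CPM per kilobase in Rb1/Trp53 tumours (median 8.50) and 9.90 to 30.4 in Rb1/Trp53/Crebbp tumours (median 16.3). Myc made up a median of 42.3% of that sum in Rb1/Trp53 and 23.4% in Rb1/Trp53/Crebbp tumours, and Mycl1 37.2% and 50.4%. The share of Mycl1 reached 75.7% in Rb1/Trp53/Crebbp tumour 2, and the share of Mycn, with medians of 19.3% and 14.2%, reached 49.5% in tumour 5. The leading Myc gene was thus a different one in these 2 tumours.

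The NFI sum was 73.2 to 107.8 CPM per kilobase in Rb1/Trp53 tumours (median 79.0) and 110.2 to 162.8 in Rb1/Trp53/Crebbp tumours (median 127.5), with no overlap. Nfib made up a median of 52.6% and 61.3% of it, Nfic 27.9% and 21.3%, Nfix 8.83% and 10.7%, and Nfia 10.8% and 5.36%. The share of Nfia was at most 6.70% in Rb1/Trp53/Crebbp tumours and at least 7.08% in Rb1/Trp53 tumours. These sums and shares are descriptions and were not tested.

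**Figure D3:**
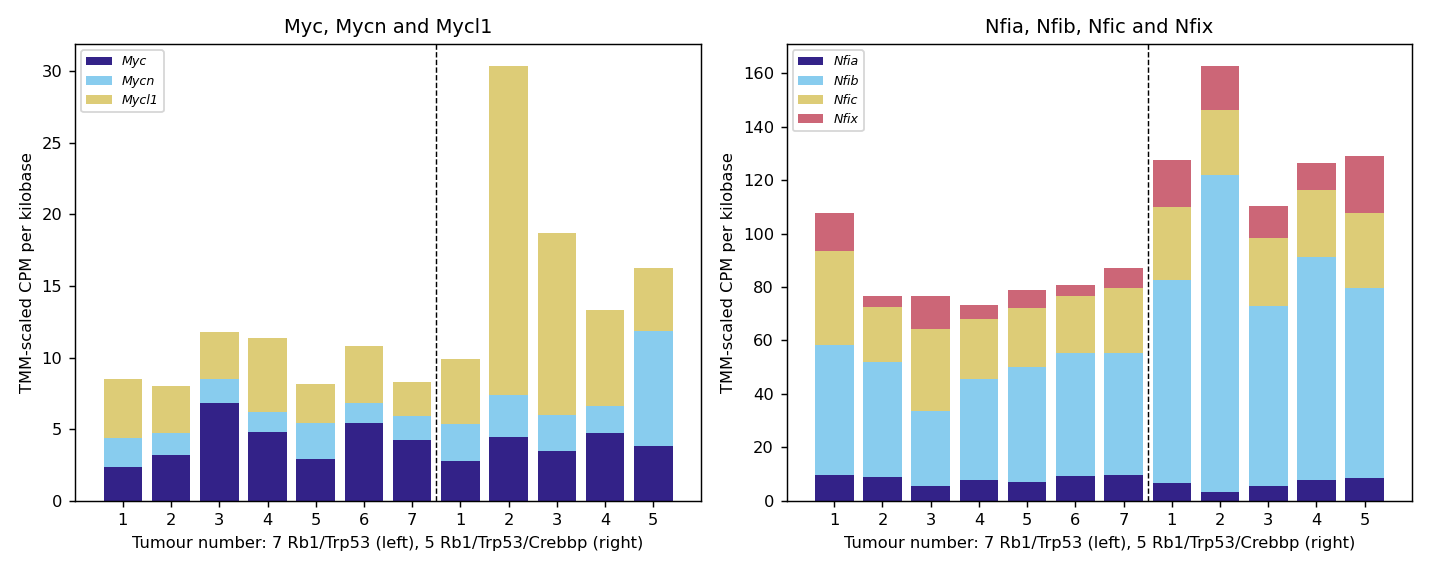
Stacked bars of TMM-scaled CPM per kilobase of exon in each tumour, 7 Rb1/Trp53 left and 5 Rb1/Trp53/Crebbp right of the dashed line, for the Myc genes and the NFI genes. The Myc sum is highest in Rb1/Trp53/Crebbp tumour 2 (30.4), mostly Mycl1, and the NFI sum is 110.2 or more in all 5 Rb1/Trp53/Crebbp tumours.

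Genes next to the members were examined because position was not used to choose them. The 5 nearest tested genes on each side of each member in the RefSeq gene order make 80 genes. Of these, 13 were higher and 5 lower, where 9.64% of all tested genes were higher and 8.61% lower. Their median log2 fold change was 0.12, against -0.02 for all tested genes. With both directions together the called share was near the 18.3% of all tested genes, but more of the calls were higher than lower. Around Mycn, 4 of 10 were higher, where 9.64% of all tested genes were. These 4 were the kinase-like gene Trib2, the neuronal calcium sensor gene Vsnl1, Smc6 of the DNA repair complex of that name, and the resolvase gene Gen1, with log2 fold changes of 1.498, 2.44, 0.56 and 0.85. In Rb1/Trp53/Crebbp tumour 5 the 3 consecutive genes Mycn, Ddx1 and Nbas stood out. Ddx1, an RNA helicase gene, was at 991 CPM in that tumour and at 119 to 182 CPM in the other 11, and Nbas, a gene of Golgi to endoplasmic reticulum transport, was at 184 CPM against 36.2 to 63.9 CPM. These levels are 6.36-fold and 3.90-fold the median of the other 11 tumours.

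On the other side of Mycn the next gene, Fam49a, was at 0.978-fold in tumour 5, and Fam84a, next beyond Nbas, at 2.88-fold. Ddx1 and Nbas lie outside the rule for named genes and were picked because of these values; between the genotypes neither was called (log2 fold change 1.22 ± 0.43 SE and 0.68 ± 0.34 SE; edgeR adjusted p = 0.0631 and 0.172). In tumour 5, 3.57% of 14888 genes were at least 3-fold above the median of the other tumours, and 8 runs of at least 3 adjacent genes were, of which this was the 1 run with a member. The 12 tumours had 1 to 16 such runs each, among them clusters of related genes such as Myh2, Myh1 and Myh4. Tumour 5 also held 3508 CPM of skeletal muscle markers, and Rb1/Trp53 tumour 6 held 3354 CPM, with Mycn at 3.90 CPM and Ddx1 at 147 CPM. The other 10 tumours held at most 407 CPM of these markers. Whether muscle content bears on the levels of Mycn, Ddx1 and Nbas was not tested.

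Around Mycl1 the zinc finger gene Rlf and the growth factor gene Bmp8b were higher (log2 fold changes 0.59 and 2.43) and the Notch target Heyl was lower (-1.19). In Rb1/Trp53/Crebbp tumour 2, where Mycl1 was 5.58-fold the median of the other tumours, its adjacent genes did not share that level: Mfsd2a, a lipid transporter gene, was at 0.261-fold and Trit1, a tRNA modifying enzyme gene, at 1.30-fold. Bmp8b, beyond Trit1, was at 15.1-fold there, from 179 counts. Around Nfib 3 of 10 genes were higher, where 9.64% of all tested genes were: Psip1, which encodes a chromatin-bound coactivator (0.77), Mpdz, a scaffold gene of cell junctions (0.52), and the palmitoyltransferase gene Zdhhc21 (0.47). In tumour 2 they stood at 2.43-fold, 1.65-fold and 1.75-fold and Nfib at 2.58-fold.

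Around Nfia the deubiquitinase gene Usp1 was higher (0.86), and the cytochrome P450 genes Cyp2j6 (-0.85) and Cyp2j9 (-1.89) and Kank4 (-1.83) were lower. The Cyp2j genes are close copies of each other, so their counts are uncertain. Trib1, near Myc, was lower (-0.91), Celf5, near Nfic, was higher (1.15), Cacna1a, near Nfix, was higher (0.67), and none of the 10 genes around Max was called by edgeR, though 2 had an unadjusted p under 0.05.

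**Figure D4:**
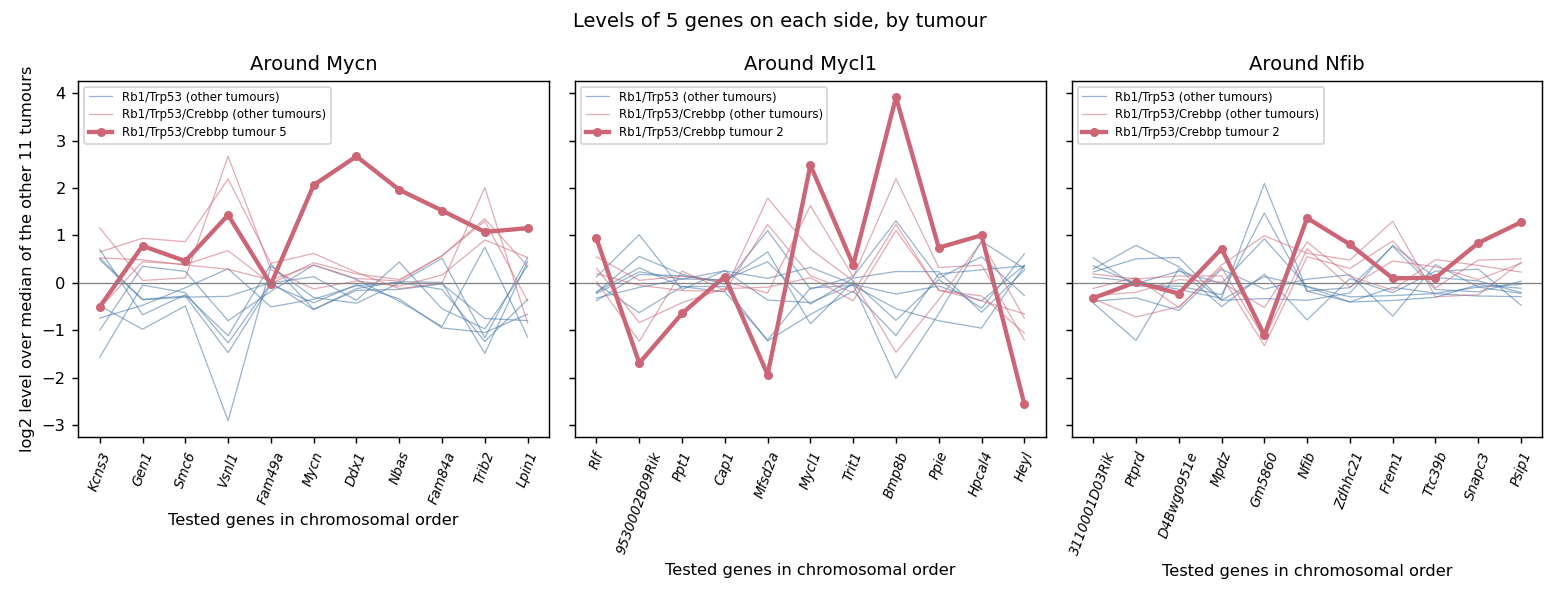
log2 of each tumour's level over the median of the other 11 tumours for a member and the 5 tested genes on each side in chromosomal order, evenly spaced; the thick line is the tumour highest in that member. In tumour 5 Mycn, Ddx1 and Nbas rise together to 4.17-fold, 6.36-fold and 3.90-fold, whereas in tumour 2 Mycl1 rises to 5.58-fold without its 2 adjacent genes.

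The partners and targets of these factors were described from lists chosen by function. The lists were chosen with earlier results of these data known, so their called shares are descriptions and not independent comparisons with all genes. Of 9 MAX network partners, 2 were higher and none lower, 22.2% called where 18.3% of all tested genes were, a share near the background (median log2 fold change 0.06): Mxd3, an MXD repressor expressed in dividing cells, went from 11.9 ± 4.93 to 26.01 ± 11.5 CPM (SD, n = 7 and 5) and Mxi1, another MXD family repressor, from 58.8 ± 7.98 to 76.5 ± 10.2 CPM. Of 14 genes for Myc cofactors and turnover, 3 were higher and 1 lower, 28.6% called. Aurka, a mitotic kinase gene whose protein stabilises MYCN, was 2.02-fold higher, Skp2, a ubiquitin ligase subunit gene, 1.57-fold and the chromatin remodelling gene Ruvbl2 1.37-fold. Fbxw7, the ubiquitin ligase subunit gene that targets MYC proteins for degradation, was 1.34-fold lower (edgeR adjusted p = 0.0198).

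Among 39 Myc target genes, 10 were higher and 1 lower, 28.2% called against 18.3% of all tested genes, and 31 of the 39 fold changes were above 0 (median 0.17, against -0.02 and 48.5% above 0 over all tested genes). In the list for ribosome biogenesis 4 of 18 were higher, by small amounts: Bop1 1.27-fold, Dkc1 1.32-fold, Nop2 1.22-fold and Utp20 1.23-fold. In the list for growth and metabolism 6 of 21 were higher and 1 lower. The lactate dehydrogenase gene Ldha was 1.63-fold higher, Cdc25a, a phosphatase gene of cell cycle entry, 1.32-fold higher with no overlap between the groups, and Tfrc, the transferrin receptor gene, 1.59-fold higher. Eno1 was called as 1.79-fold higher, but this enolase gene has near-identical copies, so its count is uncertain. Ccnd2, the cyclin D2 gene, was the lower one (2.24-fold lower, with no overlap). It was outside the 4 genes of that list with the smallest p and was named because it went the other way. Of the 39 targets, 1 thus had its groups apart with Rb1/Trp53/Crebbp above and 1 with it below. Over all tested genes these shares were 3.62% and 2.64%.

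Of 6 genes repressed by Myc, 1 was called, Ndrg1, as 1.36-fold higher, a share of 16.7% that is near the 18.3% of all tested genes. Of 14 genes linked to NFI factors in the brain, 10 were tested, 1 was higher and 3 lower, 40% called where 9.64% of all tested genes were higher and 8.61% lower (median -0.35). The list was not split into genes that NFI factors raise and genes that they repress, so its median and called share give no direction of NFI action. The lower ones were the Notch target Hes1 (28.8 ± 8.78 to 9.56 ± 5.04 CPM, SD, n = 7 and 5, with no overlap), the glutamate transporter gene Slc1a3 (3.31-fold) and Zcchc24 (1.92-fold), and Ezh2, a histone methyltransferase gene, was 1.69-fold higher. Hes1 was the 1 tested gene of that list with its groups apart, where 2.64% of all tested genes had Rb1/Trp53/Crebbp tumours below. The astrocyte and neural genes Gfap, Fabp7, Mmd2 and Gabra6 were too low to be tested. The counts of called Myc targets were 1 without Rb1/Trp53/Crebbp tumour 2, 3 without tumour 1 of that group, and 0 without tumours 2 and 5 together (edgeR quasi-likelihood test; 3392 of all genes then had an unadjusted p under 0.05, and 230 were called). They were 4 without each of Rb1/Trp53 tumours 2 and 4 and Rb1/Trp53/Crebbp tumours 3 and 5. They were 3 without Rb1/Trp53 tumour 6 and 5 without Rb1/Trp53 tumour 7. Of all tested genes, 7.08% and 8.73% were called without Rb1/Trp53/Crebbp tumours 2 and 1, and 10.4% to 14.1% in the other fits without 1 tumour just listed. In each of these the called share of Myc targets was below that of all tested genes. Without Rb1/Trp53 tumours 1, 3 or 5 or Rb1/Trp53/Crebbp tumour 4 the counts were 9, 9, 11 and 12, where 22.3%, 23.5%, 18.6% and 21.5% of all genes were called. The NFI-linked count was 1 without Rb1/Trp53 tumour 4 or Rb1/Trp53/Crebbp tumour 1 or 2, and 2 without Rb1/Trp53 tumour 6 or Rb1/Trp53/Crebbp tumour 3.

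**Figure D5:**
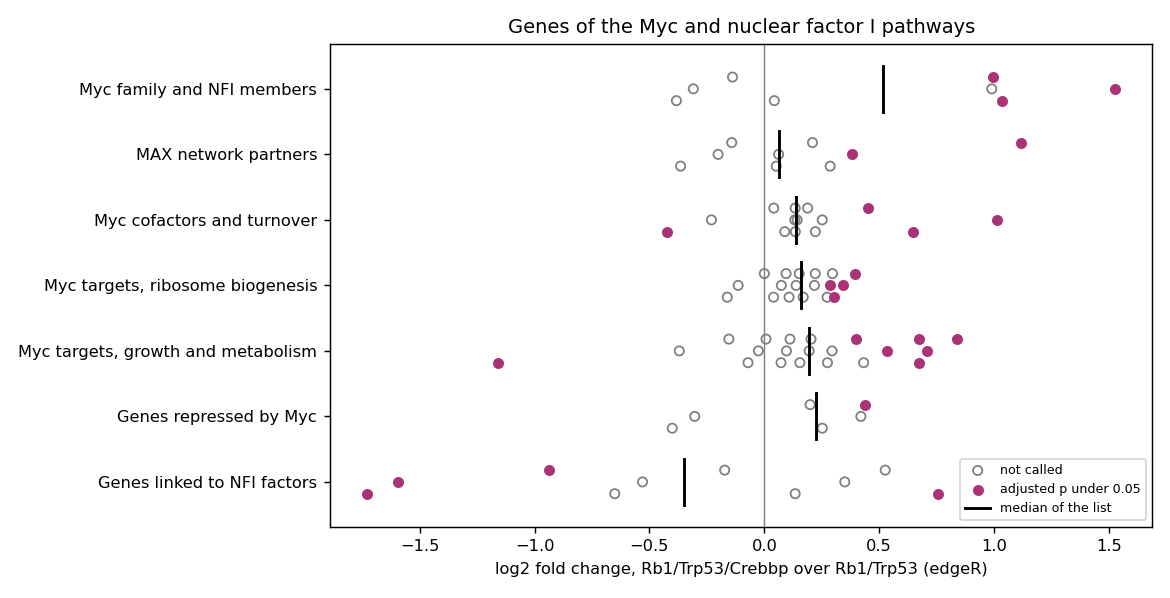
log2 fold change, Rb1/Trp53/Crebbp over Rb1/Trp53, of each tested gene of the 8 members and 6 lists of partners, targets and linked genes; filled points have an adjusted p under 0.05 and the black line is the median of the list. The target lists have medians of 0.16 and 0.19. The NFI-linked list, which was not split by the direction of NFI action, has one of -0.35.

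Markers of other cell types differed between the groups beside these results, and in bulk tumours fewer cells of a type and less RNA per cell cannot be told apart. All 9 adipocyte markers were lower (summed level 57.7 to 1695 CPM in Rb1/Trp53 and 41.3 to 102 CPM in Rb1/Trp53/Crebbp tumours), led by the lipid droplet gene Plin1 and by Pck1, Fabp4 and Retn. Of 11 tested thyroid follicular markers 2 were lower, the deiodinase gene Dio1 and the thyrotropin receptor gene Tshr (summed level 2038 to 9646 CPM against 394 to 5959 CPM). Over all tested genes 8.61% were lower, and 10 of these 11 markers had a log2 fold change below 0 (median -1.8). No marker was at 0 in all tumours. Nfib was no longer called with an adipocyte score in the fit (log2 fold change 0.99; edgeR adjusted p = 0.0785) or with a follicular score (0.79; edgeR adjusted p = 0.461), and with these scores 101 and 3 of all genes were called. Nfix moved most, to 0.29 and 0.07, Mycn to 0.86 and 0.26, and Mycl1 to 1.57 and 0.92. With a fibroblast score Nfib was 0.78 (edgeR adjusted p = 0.0169).

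Of other marker lists, 1 of 7 fibroblast markers (Pdgfra), 2 of 7 endothelial (Esam, Emcn) and 1 of 2 tested lymphocyte markers (Cd79a) were lower. Over all tested genes 8.61% were lower. All 7 fibroblast, 7 endothelial and 8 macrophage markers had a log2 fold change below 0 (medians -0.65, -0.58 and -0.65), and all 6 skeletal muscle markers had one above 0 (median 0.35). None of 8 macrophage and none of 6 skeletal muscle markers was called by edgeR; 1 and 0 had an unadjusted p under 0.05. Among those the smallest p values were those of Csf1r (log2 fold change -0.94 ± 0.35 SE) and Acta1 (0.76 ± 1.66 SE). Log2 levels of the members were correlated with the marker scores across the 12 tumours, after the mean of each genotype was taken off. The values largest in size were those of Nfia with the lymphocyte (0.82) and skeletal muscle scores (0.76) and of Nfix (-0.81) and Nfic (-0.74) with the adipocyte score. Next came Nfib with the endothelial score (-0.72), Max with the adipocyte score (0.71) and Mycl1 with the lymphocyte score (-0.69). Nfib with the fibroblast score (-0.65) and Mycn with the C cell score (-0.64) followed. These values are named for their size. The lymphocyte score rests on its 2 tested markers, Cd79a and Cd79b. The points share library and depth, and no test was made.

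Nfic and Nfix moved together more than any other of the 28 pairs of members. Their correlation over the 12 tumours on the same scale was 0.89, and 0.94 over the 7 Rb1/Trp53 tumours, where tumours 1 and 3 were high in both. Mycl1 and Nfia had a correlation of -0.70 over 12 tumours and 0.08 over the 7 Rb1/Trp53 tumours, so the negative value came from the Rb1/Trp53/Crebbp tumours, in which tumour 2 held the most Mycl1 and the least Nfia. Nfia and Nfib had one of -0.11 over 12 and 0.90 over 7 tumours. Mycn and Max had one of -0.63 over 12 and -0.85 over 7 tumours.

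The tested genes most like each member were sought among 14577 genes with a mean of at least 1 CPM, again over 12 tumours after the genotype means were taken off. The 3 most like Mycn were Mthfd1 (0.95), an enzyme gene of folate metabolism, the ubiquitin ligase gene G2e3 (0.94) and Lrrc4 (0.90), and each of them was higher in Rb1/Trp53/Crebbp tumours. Most like Mycl1 were Pkn2 (0.94), Hmgn1 (0.91) and Prkcz (0.90), none of them called. Bcar3 (0.93), D16Ertd472e (0.92) and Mars2 (0.89) came closest to Myc, and Cyp4b1 (0.96), Pnrc1 (0.93) and Folh1 (0.92) to Max.

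For the NFI genes, Trio (0.98), Dennd5a (0.97) and Man1b1 (0.96) were most like Nfix, and Cep350 (0.97), Carf (0.96) and Mapk8ip2 (0.96) most like Nfic. Smpd1 (0.93), Lmod1 (0.93) and Slc44a4 (0.91) were most like Nfia. Nfib had the lowest likeness to its nearest genes, Ccdc73, Ccdc151 and Parp6, each at 0.87. The highest of 14577 correlations over 12 points is high for any gene, so these values describe the tumours only.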

How the data were processed

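Total RNA of 12 tumours (TRIzol, 500 ng) was enriched with oligo dT and converted to libraries (NEBNext Ultra RNA kit), per the labels' protocols. The authors deposited whole-number counts per gene, 1 table per tumour. The submitters' processing notes name bcl2fastq 1.8.2, TopHat2 2.0.12, HTSeq 0.6.1 and mm9; annotation and strand setting: not given in the sources used here. The 5 summary rows of each table were left out (reads with no feature equalled 13.1% to 17.6% and non-unique alignments 10.9% to 18.5% of all rows of a table together).

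Counts were tested with edgeR 4.0.16 (R 4.3.3; TMM, filterByExpr with minimum count 10, robust quasi-likelihood F test, genotype as the 1 term, all 12 tumours, Benjamini-Hochberg over 14989 genes, threshold 0.05). A fold of counts is on the fitted log2 scale, and log2 CPM for correlations used a prior count of 2. Intervals of fold changes cover the spread between tumours. DESeq2 1.42.0, limma 3.58.1 voom, other scalings, filters, marker scores, the tumour number and left-out tumours were alternatives; figures used matplotlib 3.10.9. Gene order came from RefSeq GRCm38.p6, where 14888 tested genes matched, and exon lengths from GENCODE M21.

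The members and lists were chosen with earlier results of these data known. Named were the 8 genes, Crebbp, up to 4 called genes of each list and up to 4 called neighbours of each member by smallest p (for a list with none, the 1 with the smallest p), and 3 most like genes per member. Ddx1, Nbas, Ccnd2, Lyl1 and the genes adjacent to Mycn, Nbas and Mycl1 lie outside this rule and were named after their values were seen. A few of the genes so chosen are not reported here.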

Additional observations from a re-analysis of the deposited data

Results flagged for a closer look

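Of 16 groups of tumours searched (the 8 genes in each genotype) at both the high and the low end, 1 had a tumour far from the next, at the high end. For normally distributed values chance gives this, at either end, in about 1 of 20 groups. The search used CPM without logs, for which the rate was not worked out. Mycn was at 22.6 CPM in Rb1/Trp53/Crebbp tumour 5, with the next tumour of that group at 8.25 CPM. Ddx1 and Nbas were added to the search after their values were seen, so their values are no separate support for that of Mycn. Ddx1 was at 991 CPM in the same tumour, with the next at 181.6 CPM, and Nbas at 184 CPM, with the next at 49.5 CPM. Nbas also stood apart in Rb1/Trp53 tumour 1, at 63.9 CPM with the next at 47.9 CPM.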

How the results depend on the processing

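Over all 12 tumours edgeR called 2736 genes, 3 members, 11 Myc targets, 4 NFI-linked genes and 18 neighbours. Leaving out 1 tumour gave 1074 to 3510 genes, 1 to 4 members, 1 to 12 Myc targets, 1 to 4 NFI-linked genes and 10 to 23 neighbours. The counts of all genes and of neighbours fell by over 1.5 times without any 1 of Rb1/Trp53 tumours 2, 4 and 6 and Rb1/Trp53/Crebbp tumours 1, 2 and 3, that of all genes also without Rb1/Trp53/Crebbp tumour 5, that of neighbours also without Rb1/Trp53 tumour 7, and that of members without Rb1/Trp53/Crebbp tumour 2. Limma voom called 6357 genes, 6 members, 19 Myc targets and 32 neighbours. Myc targets called were 7 with upper quartile scaling and 6 without a filter; with the fibroblast score 6 and 1 NFI-linked gene were called. With the follicular score 3 genes and with the adipocyte score 101 were called by edgeR (1357 and 3036 had an unadjusted p under 0.05), and 0 members, targets, NFI-linked genes and neighbours (1 and 2 members had an unadjusted p under 0.05).

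Without Rb1/Trp53/Crebbp tumours 2 and 5, 230 genes, 1 member, 0 Myc targets, 1 NFI-linked gene and 2 neighbours were called. Without Rb1/Trp53 tumours 1 and 3, 5315 genes, 4 members, 15 Myc targets, 4 NFI-linked genes and 31 neighbours were called. Nfic was among those members, as higher (log2 fold change 0.23, edgeR adjusted p = 0.0283). Both pairs of left-out tumours were chosen after seeing the data. The tumour numbers did not pair the samples (correlations of same-numbered tumours -0.18 to 0.15; none was best with its own number). With the tumour number 1 to 5 as a replicate block, edgeR called 463 genes, 1 member (Nfib), 0 Myc targets, 1 NFI-linked gene and 3 neighbours (3870 genes had an unadjusted p under 0.05); the same 10 tumours without the block gave 868, 1, 1, 1 and 8.

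Signs turned for uncalled genes. Myc was 0.025 in log2 with the block and 0.030 with the adipocyte score, and -0.244 to 0.011 with 1 tumour left out (highest without Rb1/Trp53 tumour 3). Nfic was -0.016 in the 10 tumours without the block, -0.10 with the follicular score, -0.23 with the adipocyte score, and -0.0059 (without Rb1/Trp53 tumour 5) to 0.142 with 1 left out. Nfia was 0.28 with the follicular score. Mycn was called in 8, Mycl1 in 18, Nfib in 23 and Nfix in 6 of 25 alternatives. The causes were not tested. Depth limits Mycn most, with 45 to 415 counts per tumour.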
